A study of Mus musculus with 5 samples.

Results

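Plasma cells are the antibody-secreting end stage of the B cell lineage. Barcodes like them were rare in these mammary gland libraries, and most UMIs of Jchain and Mzb1 lay in 19 barcodes. The genes considered were Jchain, Mzb1, Igkc, Igha and Ighm. They had been chosen by measured values of these libraries, namely how their UMIs were spread over barcodes, so their values are given as a description and without a test. Of these 5 listed symbols, 2 (Jchain and Mzb1) had a row among the 27998 rows of the gene tables, and Igkc, Igha and Ighm were not analysed here. All levels below therefore concern the joining chain and a chaperone of antibody assembly, and not the antibody chains. Jchain had 16109 UMIs and Mzb1 had 791 UMIs over the 14317 barcodes that passed the quality filter.

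Jchain (ENSMUSG00000067149) lies on the minus strand of chromosome 5 at 88519809-88527891 of GRCm38, the assembly also named mm10, and its longest coding transcript has 4 exons. Mzb1 (ENSMUSG00000024353) lies on the minus strand of chromosome 18 at 35647267-35649367 and also has 4 exons. Both are protein-coding genes. The libraries were 3′ tag libraries, in which 1 UMI stands for 1 captured transcript whatever its length, so levels of both genes can be set side by side as UMIs.

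The 5 libraries came from whole mammary glands of ovariectomized BALB/cj mice labelled as 30 weeks old, with 1 library per group. The treatments started 20 weeks after the ovariectomy and lasted 1 week. OVX received DMSO as vehicle, OVX_E2 received 17β-estradiol (E2) at 1 µg per animal each day, and OVX_E2_P4 received E2 and progesterone (P4) at 0.1 mg per animal each day. OVX_E2_PBDE and OVX_E2_P4_PBDE received the same hormones and food with polybrominated diphenyl ethers (PBDEs), a class of flame retardants, at doses in the food of 7.1 mg/kg for BDE-47, 0.4 mg/kg for BDE-100 and 0.9 mg/kg for BDE-153, while the other groups received matched food with DMSO. All 5 groups share the loss of the ovaries, and how many animals went into each library is not given in the sources used here. The lymph node of the gland was removed before dissociation and no cells were sorted. Since every group is 1 library, differences between groups have no test, and all intervals are exact 95% intervals that cover counting error only.

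About 4000 cells were loaded per library. Between 2229 and 3526 barcodes per library passed the quality filter, with 19978176 to 41933409 UMIs in all. Any pair of libraries had 3 to 15 barcodes in common. Numbers given to the library files set both PBDE libraries apart from the other 3, so a difference in preparation and the PBDE food cannot be told apart.

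In a plasma cell, the joining chain made from Jchain links antibody units into dimeric IgA and pentameric IgM, which epithelial cells can then carry across the cell layer with the receptor encoded by Pigr. Mzb1 encodes an endoplasmic reticulum protein that helps the folding and secretion of antibodies and is also made in marginal zone B cells. In the mammary gland, IgA plasma cells are known to gather during lactation and to supply the antibodies of milk. The glands examined here were not lactating.

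The barcode of 16 bases that marks a droplet identifies each cell, and the barcodes below are shown because a single one of each library held between 27.6% and 56.8% of all its Jchain UMIs.
OVX: gcttgaaagacctagg
OVX_E2: caactaggtagcttgt
OVX_E2_PBDE: ccgtggaagacgcaca
OVX_E2_P4: cgtctaccaggacgta
OVX_E2_P4_PBDE: ctaagaccaactggcc
In this order they held 1240, 1528, 1234, 1209 and 950 Jchain UMIs. Within a library, the barcodes rich in Jchain differed from each other at 10 or more of the 16 positions.

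The RefSeq sequence of the 250 bases before the start of Jchain (GRCm38.p6, chr5:88527898-88528147, minus strand, written 5′ to 3′) is shown because Jchain was the gene with the most UMIs in most of the barcodes described below. Capitals mark the matches to the E-box CANNTG, a motif of E proteins, which are transcription factors of the B cell lineage.
Jchain upstream region: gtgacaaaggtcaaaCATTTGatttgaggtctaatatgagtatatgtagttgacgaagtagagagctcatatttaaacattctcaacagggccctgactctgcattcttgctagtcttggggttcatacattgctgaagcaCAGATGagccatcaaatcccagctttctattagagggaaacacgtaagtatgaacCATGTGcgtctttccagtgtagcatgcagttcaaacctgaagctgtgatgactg
The matches began 235, 109 and 54 bases before the start. An E-box was found in 66.2% of the 32851 upstream regions of the same length. The octamer ATGCAAAT, a motif read by Oct factors with the coactivator encoded by Pou2af1, had 0 matches on either strand here and was found in 1.60% of all regions, and the letters GAGGAA, a core bound by PU.1, had 0 matches and were found in 23.3%. The letters CCACG, a core bound by XBP1, had 0 matches and were found in 28.3%.

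Jchain UMIs per barcode lay in separate ranges. A barcode was called Jchain-high when it held at least 10 Jchain UMIs, and 19 of the 14317 barcodes did. The lowest of them held 45 UMIs and the highest of all other barcodes held 4, both in OVX_E2_P4_PBDE. The 19 barcodes held 14658 of the 16109 Jchain UMIs (91.0%) and 675 of the 791 Mzb1 UMIs (85.3%). The remaining 1451 Jchain UMIs were spread over 1314 barcodes, most of which held 1 UMI.

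**Figure D1:**
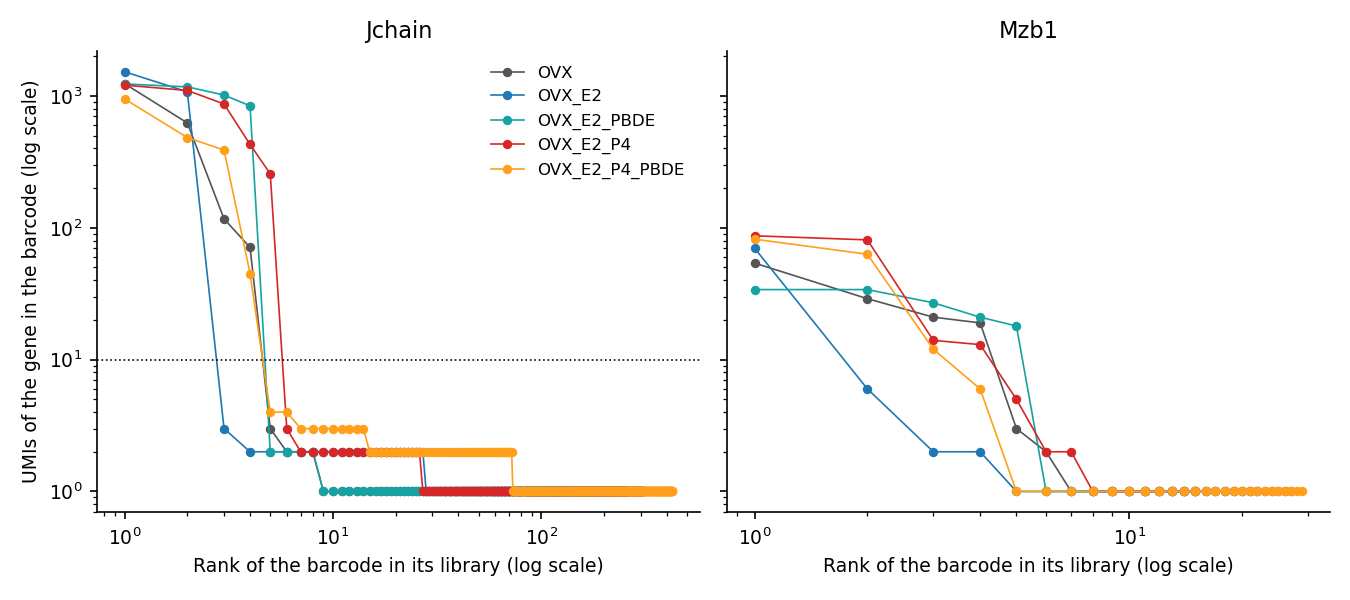
UMIs of Jchain (left) and Mzb1 (right) in each barcode with at least 1 UMI, against the rank of the barcode in its library, on log axes, with 1 colour per library and a dotted line at 10 Jchain UMIs. In each library 2 to 5 barcodes stand at 45 to 1528 Jchain UMIs and all others lie at 4 or fewer, while Mzb1 starts at 34 to 87 UMIs.

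OVX had 4 Jchain-high barcodes, OVX_E2 had 2, OVX_E2_PBDE had 4, OVX_E2_P4 had 5 and OVX_E2_P4_PBDE had 4. In the same order, as shares of all barcodes, these were 0.129% (Clopper-Pearson 0.0351 to 0.329%), 0.0897% (0.0109 to 0.324%), 0.113% (0.0309 to 0.290%), 0.161% (0.0524 to 0.376%) and 0.170% (0.0462 to 0.434%). All 5 intervals overlap, and the numbers of these cells did not separate the groups at this depth.

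The label of plasma cell was set beside 8 marker genes, Jchain, Mzb1, Derl3, Tnfrsf17, Pou2af1, Eaf2, Prdm1 and Irf4. A Jchain-high barcode was called plasma cell-like when 3 or more of these 8 genes were detected, and 17 of the 19 were. Jchain had chosen these barcodes and Mzb1 had a UMI in all 19, so 1 of the other 6 markers was enough, and the count is a description. OVX and OVX_E2_P4_PBDE had 3 each, and all Jchain-high barcodes of the other libraries were plasma cell-like. The median was 6 markers per Jchain-high barcode, Jchain and Mzb1 included. Derl3, of the degradation machinery of the endoplasmic reticulum, had a UMI in 15 of the 19. Tnfrsf17, which encodes the survival receptor BCMA, had one in 12, and Pou2af1 in 14. The transcription factors of plasma cell fate, Prdm1 (Blimp-1) and Irf4, had a UMI in 5 barcodes each, and summed levels of 54.5 CPM (UMIs per 1000000) apiece.

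The 2 Jchain-high barcodes that were not plasma cell-like held a UMI of Jchain and Mzb1 only among the 8 markers. One, in OVX, had 71 Jchain and 21 Mzb1 UMIs. Its barcode was also called in OVX_E2_PBDE, where it held 0 Jchain UMIs among 6540 and lay in a fibroblast-like cluster. The other, in OVX_E2_P4_PBDE, had 484 Jchain and 12 Mzb1 UMIs beside 6 UMIs of Tyrobp, a signalling adaptor of myeloid and NK cells. The plasma cell-like barcode of that library with 389 Jchain UMIs also had 6 Tyrobp UMIs.

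The OVX library held Jchain-high barcodes with 1240, 625, 117 and 71 Jchain UMIs. In the first 2 of these, Jchain made up 21.8% and 15.9% of the UMIs of the barcode, and in the barcodes with 117 and 71 UMIs it made up 0.713% and 1.00%. The barcode with 117 Jchain UMIs had 16408 UMIs in all, the most among the 19, with 54 Mzb1 UMIs, 22 UMIs of the B cell receptor chain Cd79a, 16 UMIs of proliferation genes and 0 of Xbp1.

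The OVX_E2 library held 1528 and 1076 Jchain UMIs in 2 barcodes, which made up 26.0% and 12.5% of the UMIs of these barcodes. The first had the highest Jchain share of all 19 barcodes and 6 Mzb1 UMIs, and the second had 70 Mzb1 UMIs. The first lay in an L-Hor-like cluster (hormone-responsive luminal cells) although it held 0 UMIs of Krt18 and 7 of 4 luminal keratin and adhesion genes, and the second lay in a hematopoietic-like cluster.

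The OVX_E2_PBDE library held 1234, 1173, 1017 and 842 Jchain UMIs in 4 barcodes of narrow range. Jchain made up 16.5%, 18.9%, 15.1% and 12.2% of their UMIs, they had 6217 to 7476 UMIs in all, and each had a UMI of 6 of the 8 markers. Their Mzb1 UMIs were 27, 34, 34 and 18.

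The OVX_E2_P4 library held 1209, 1102, 870, 429 and 257 Jchain UMIs. Jchain made up 11.6%, 14.5%, 21.8%, 3.83% and 4.01% of the UMIs, and Mzb1 had 87, 14, 13, 81 and 5 UMIs. The barcode with 257 Jchain UMIs lay in a fibroblast-like cluster and held 150 UMIs of 6 fibroblast genes beside 6 of the 8 plasma markers, so that it held the transcripts of both cell types. The other 18 Jchain-high barcodes held 4 to 30 UMIs of the fibroblast genes.

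The OVX_E2_P4_PBDE library held 950, 484, 389 and 45 Jchain UMIs, which were 16.6%, 7.15%, 6.75% and 0.320% of the UMIs of the barcodes. Mzb1 had 63, 12, 6 and 82 UMIs. The barcode with 45 Jchain UMIs had more Mzb1 than Jchain, 25 UMIs of the 5 proliferation genes, 218 UMIs of the 4 antigen presentation genes and 14043 UMIs in all. It lay in a mixed luminal cluster with the proliferation genes Ube2c and Top2a among its leading genes, although it held only 8 UMIs of the 4 luminal genes. Of the 19 barcodes, 4 had a UMI of the proliferation genes, and this one and the OVX barcode with 117 Jchain UMIs had 25 and 16. These were also the 2 barcodes with the most UMIs and the lowest Jchain shares.

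**Figure D2:**
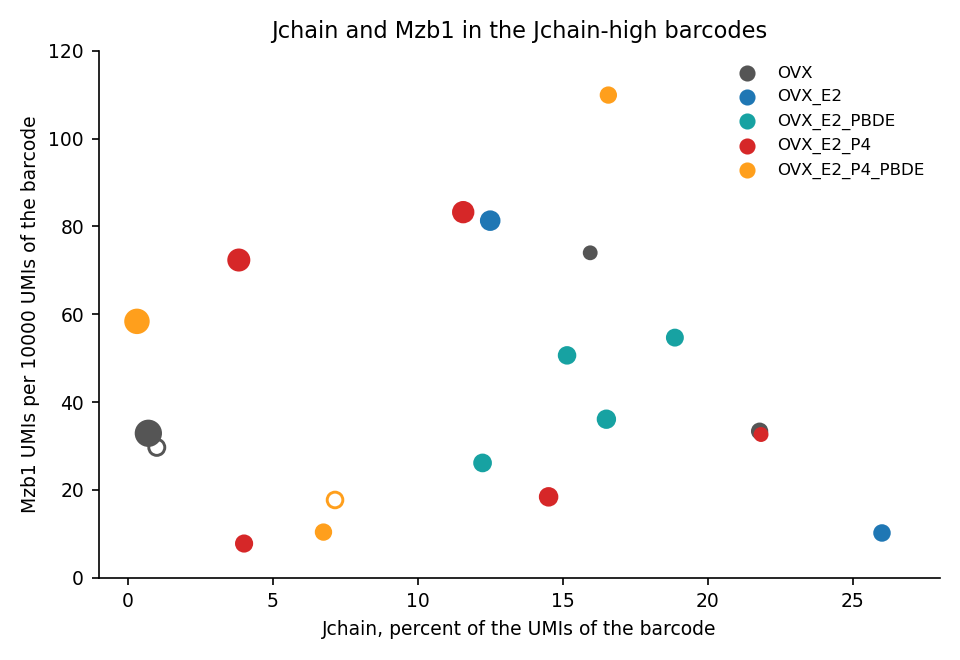
Jchain as a percent of the UMIs of a barcode (x axis) and Mzb1 UMIs per 10000 UMIs of the barcode (y axis) in the 19 Jchain-high barcodes, 1 point per barcode, coloured by library, with an area in proportion to total UMIs and open circles for the 2 barcodes with under 3 plasma markers. Jchain ranges from 0.320 to 26.0% and Mzb1 from 7.81 to 110 per 10000, and a high Jchain share occurs with high and with low Mzb1.

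Jchain and Mzb1 varied apart from each other among these barcodes. Jchain made up 0.320% to 26.0% of the UMIs of a barcode (median 12.5%), and it was the gene with the most UMIs in 16 of the 19. Mzb1 had a UMI in all 19, between 5 and 87 (median 27), or 7.81 to 110 per 10000 UMIs. Across the 19 barcodes the Spearman correlation of their shares was 0.067. These points share libraries, and both shares have the total UMIs of the barcode as denominator. The share of Jchain and the total UMIs had a Spearman correlation of -0.69, and the share of Mzb1 and the total UMIs had one of 0.17.

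The transcripts summed over the 19 Jchain-high barcodes (146791 UMIs) were set beside those of 507 other hematopoietic-like barcodes (3307391 UMIs, with B cell-like barcodes left out). Of 8752 genes with at least 20 UMIs over both sums, 616 were more than 2-fold higher (7.04%) and 1378 more than 2-fold lower (15.7%) in the Jchain-high barcodes, with 10 CPM added to each level and a median log2 ratio of -0.14. The barcodes were selected on Jchain and the hematopoietic-like clusters were made from other variable genes of the same barcodes, so the counts of the lists below are descriptions. These list counts were made without the minimum of 20 UMIs, so they include genes with fewer.

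The machinery of protein secretion was high in the Jchain-high barcodes. All 20 of 20 listed genes of folding and export at the endoplasmic reticulum were more than 2-fold higher, with a median log2 ratio of 2.68. Their summed level was 18577 CPM, against 3095 in the other hematopoietic-like, 3093 in the fibroblast-like and 2488 in the epithelial-like barcodes. Between 16 and 20 of the 20 genes had a UMI in each of the 19 barcodes. Txndc5, a disulfide isomerase of the endoplasmic reticulum, stood at 1083 against 60.2 CPM. The signal peptidase subunit Sec11c stood at 1628 against 189 CPM, and the stress-induced Herpud1 at 1764 against 139 CPM. Hspa5, the abundant chaperone BiP, differed less, with 1049 against 417 CPM.

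Of the 8 genes that regulate plasma cell fate, 5 were more than 2-fold higher and 0 lower. Xbp1, the factor that drives the secretory programme, stood at 1213 against 75.9 CPM and had a UMI in 18 of the 19 barcodes. Pou2af1 stood at 252 against 1.21 CPM. Mef2b had 0 UMIs in both sums. Of the 8 plasma markers themselves, 7 were more than 2-fold higher, among them Jchain, which had selected the barcodes. Prdm1, at 54.5 against 23.3 CPM, was the exception once 10 CPM was added to each level. Prdm1, Irf4 and Pou2af1 belong to both lists.

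Of 13 surface genes linked to plasma cells, 6 were more than 2-fold higher and 1 lower. Ccr9, with 2 UMIs in 1 barcode, was among the 6. Sdc1, which encodes the plasma cell marker CD138, had a UMI in 13 of the 19 barcodes and stood at 225 CPM. It stood at 15.4 CPM in other hematopoietic-like barcodes and at 37.9 in epithelial-like barcodes, which also use it. Ly6c2 had a UMI in all 19 barcodes and stood at 1110 against 101 CPM. Ccr10, the receptor that draws IgA plasma cells to mucosal tissue, had 0 UMIs in the 19 barcodes. The gut-homing integrin gene Itgb7 was the lower one, at 27.2 against 109 CPM.

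Genes of earlier B cells were split. Of 10 genes, 4 were more than 2-fold higher and 0 lower. Cd79a and Cd79b, the signalling chains of the B cell receptor, stood at 702 and 238 CPM, against 1.51 and 3.02 in the other hematopoietic-like barcodes. Pax5, Bank1 and Cd22, which B cells lose when they become plasma cells, had 0 UMIs in the 19 barcodes. Ms4a1 (CD20) and Fcmr were among the 4 higher genes. Ms4a1 had a UMI in 10 of the 19, with 16 UMIs in all, and Fcmr had 2 UMIs in 2 barcodes. The 4 genes of antigen presentation by MHC class II were all more than 2-fold lower, with Cd74 at 6165 against 15430 CPM and H2-Aa at 504 against 7356 CPM. That comparison leaves out the B cell-like barcodes described below. In those, Cd74 stood at 4225 CPM, under its level in the Jchain-high barcodes. H2-Aa, H2-Ab1 and H2-Eb1 stood there at 2065, 840 and 1320 CPM, against 504, 599 and 402 in the Jchain-high barcodes. Of the 124963 UMIs of the B cell-like barcodes, 58106 came from 5 barcodes of epithelial-like clusters. Their levels are therefore not those of B cells alone.

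The myeloid, T and NK cell, fibroblast, endothelial and pericyte lists were lower in the same sum than in other hematopoietic-like barcodes. The list of plasmacytoid dendritic cells was higher, at 116 CPM summed against 33.6 in other hematopoietic-like barcodes. Of its 5 genes, 2 were more than 2-fold higher and 1 lower. The higher ones were Cox6a2, with 14 UMIs in 3 barcodes, and Ccr9, with 2 UMIs in 1 barcode. The luminal, basal and endothelial lists had 0 genes past 2-fold in either direction. The basal list was somewhat higher as a sum, at 88.6 against 62.6 CPM. The myeloid list had 7 of 8 genes lower, at 313 CPM summed against 6524, and of the T and NK cell list 4 of the 6 genes with a row were lower. The fibroblast list was summed at 2541 CPM, against 5128 in other hematopoietic-like and 26473 in fibroblast-like barcodes. The luminal list stood at 824 CPM, against 962 in other hematopoietic-like and 9924 in epithelial-like barcodes. Of the endothelial list only Pecam1 had a UMI, and all 6 pericyte genes were at 0.

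**Figure D3:**
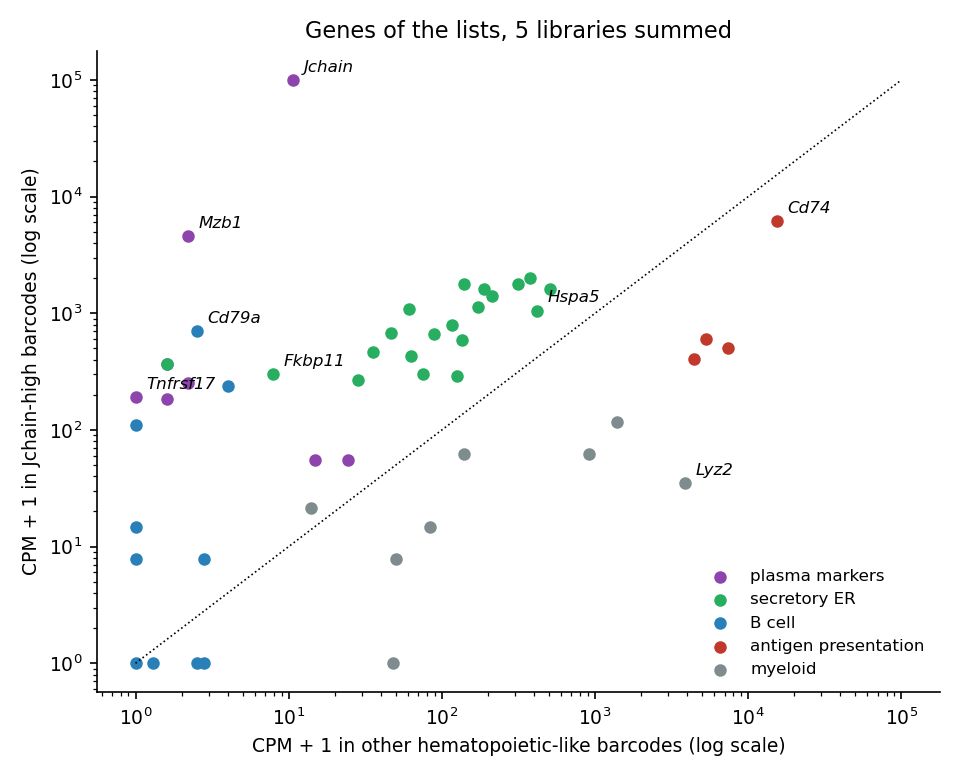
Level of each gene of 5 lists in the 19 Jchain-high barcodes (y axis, CPM + 1, log scale) and in 507 other hematopoietic-like barcodes (x axis, CPM + 1, log scale), all libraries summed, with 1 point per gene coloured by list and a dotted line where both are equal. All 20 secretory genes lie above the line, the 4 antigen presentation genes lie below it, and Jchain stands at 99856 CPM.

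By a rule of size that leaves out Jchain and Mzb1, the 10 genes with the largest ratio of the 17 plasma cell-like barcodes to the 515 hematopoietic-like barcodes that were not plasma cell-like were Tnfrsf17, Derl3, Eaf2, Prg2, Cacna1s, Pou2af1, Chac1, Gm43291, Fkbp11 and Il10. Tnfrsf17, Derl3, Eaf2 and Pou2af1 are among the 8 markers used to call the barcodes. Cacna1s, a calcium channel subunit best known from muscle, had 78 UMIs in 15 of the 17 barcodes, against 17 UMIs in the 515 barcodes. Prg2, known as an eosinophil granule protein, had 64 UMIs in 10 of the 17. Il10, which encodes an anti-inflammatory cytokine, had 71 UMIs in 9 of the 17 and stood at 534 CPM, against 12.1 CPM in the 515 barcodes.

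The pattern of Jchain over 39 sums of UMIs by library and class was compared with that of all genes. Mzb1 had a Pearson correlation of 0.93 with it on the log2(CPM + 1) scale. The most alike genes outside the listed symbols were Tnfrsf17 (0.95), Derl3 (0.94) and Cacna1s (0.94), followed by Serp1, Prg2, Mtdh, Creld2, Ssr4, Spcs2 and Fkbp2, at 0.90 to 0.92. For Mzb1 they were Cacna1s (0.97), Cd79a (0.96) and Serp1 (0.95). The sums share libraries, and 4 of the 39 are the Jchain-high barcodes, in which both genes are highest. The Jchain-high barcodes of OVX_E2, with 14483 UMIs, were under the minimum of 20000 UMIs for a sum.

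Barcodes with B cell genes that were not Jchain-high were described apart, and by this rule each held under 10 Jchain UMIs. Barcodes that were not Jchain-high, with 3 or more of the 10 B cell genes detected, numbered 12 and were called B cell-like. OVX_E2_P4 had 6 of them, OVX had 3, OVX_E2_PBDE had 2, OVX_E2_P4_PBDE had 1 and OVX_E2 had 0, where 3 counts, taken as the limit of a count of 0, are 0.135% of the barcodes (Clopper-Pearson upper end 0.165%). These 12 barcodes held 3 Jchain UMIs and 33 Mzb1 UMIs in 124963 UMIs, and 9 of them had a Mzb1 UMI. Of the 12, 6 lay in hematopoietic-like clusters, 5 in epithelial-like clusters and 1 in a fibroblast-like cluster. The 4 luminal genes summed to 1701 CPM in the first 6 and to 11290 CPM in the 5 of epithelial-like clusters. In all epithelial-like barcodes they summed to 9924 CPM, so those 5 held the transcripts of both cell types. Among the first 6, a barcode of OVX held 89 of the 107 luminal UMIs, at 6103 CPM, so it held luminal transcripts too. The others of the first 6 stood at 0 to 804 CPM. The first 6 held 28 of the 33 Mzb1 UMIs and all 3 Jchain UMIs. A single barcode of OVX_E2_PBDE held 21 of the 33 Mzb1 UMIs beside 1 Jchain UMI, in 25694 UMIs. This barcode had 15 Cd79a UMIs, a UMI of 9 of the 10 B cell genes and of 5 of the 8 plasma markers, 315 UMIs of antigen presentation genes, and 29 UMIs of proliferation genes. The 3 barcodes like plasmacytoid dendritic cells, which are known to carry Mzb1, all lay in OVX and held 0 Jchain UMIs and 1 Mzb1 UMI in 40696.

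At the level of whole libraries, Jchain stood at 108 CPM in OVX (Poisson 103 to 112), 97.6 in OVX_E2 (94.1 to 101), 107 in OVX_E2_PBDE (104 to 110), 129 in OVX_E2_P4 (125 to 133) and 119 in OVX_E2_P4_PBDE (114 to 123). The order was OVX_E2, OVX_E2_PBDE, OVX, OVX_E2_P4_PBDE and OVX_E2_P4, from lowest to highest, and OVX_E2_PBDE and OVX overlapped. Each of these levels rested on few barcodes, since 1 to 2 barcodes held 50% of the UMIs of every library. Both the number of Jchain-high barcodes and the Jchain UMIs in each enter the library level. With 2 to 5 such barcodes per library, neither was measured with precision.

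Mzb1 stood at 6.75 CPM in OVX (5.67 to 7.99), 3.08 in OVX_E2 (2.48 to 3.78), 3.60 in OVX_E2_PBDE (3.05 to 4.22), 6.88 in OVX_E2_P4 (6.0 to 7.84) and 9.41 in OVX_E2_P4_PBDE (8.11 to 10.9). OVX_E2 and OVX_E2_PBDE overlapped, as did OVX and OVX_E2_P4. The barcode with the most Mzb1 held 76.9% of the UMIs of OVX_E2, and 22.5% to 43.6% of those of the other libraries. Without that barcode the level was 0.711 CPM in OVX_E2, 4.10 in OVX and 4.21 in OVX_E2_P4.

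Set between libraries, Mzb1 was 0.456 times as high in OVX_E2 as in OVX (0.346 to 0.598), and 2.23 times as high in OVX_E2_P4 as in OVX_E2 (1.74 to 2.88). Both ratios are past 2-fold, in comparisons where 18.3% of 12966 genes and 2.15% of 13232 genes were. Jchain was past 2-fold in neither, with 0.907 and 1.32 times. Both Mzb1 ratios use OVX_E2, where 70 of the 91 Mzb1 UMIs lay in a single barcode. Their intervals do not cover variation in the number of such barcodes. For OVX_E2_PBDE against OVX_E2, where 2.47% of genes were past 2-fold, Jchain was 1.09 times (1.04 to 1.15) and Mzb1 1.17 times (0.896 to 1.53) as high. For OVX_E2_P4_PBDE against OVX_E2_P4, where 2.71% were, Jchain was 0.921 times (0.875 to 0.969) and Mzb1 1.37 times (1.12 to 1.67) as high. OVX_E2 enters 3 of these comparisons, so they are not independent. Without the Jchain-high barcodes, the Mzb1 UMIs of OVX and OVX_E2 were 14 and 15, too few to be ranked.

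Outside the Jchain-high barcodes, Jchain was found at a low level in every library. Per 1000000 UMIs of the barcodes that were not Jchain-high, it stood at 6.42 CPM in OVX (5.36 to 7.62), 9.51 in OVX_E2 (8.43 to 10.7), 5.04 in OVX_E2_PBDE (4.38 to 5.76), 10.1 in OVX_E2_P4 (9.02 to 11.2) and 25.1 in OVX_E2_P4_PBDE (23.0 to 27.4). OVX_E2_P4_PBDE lay above the other 4 libraries with no overlap. It held 353 barcodes with 1 UMI, 58 with 2, 8 with 3 and 2 with 4. OVX held 121 with 1 UMI, 3 with 2 and 1 with 3. Against 100 Jchain UMIs inside the Jchain-high barcodes, 26.8 lay outside in OVX_E2_P4_PBDE, and 4.95 to 10.8 in the other libraries.

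Left without the Jchain-high barcodes, Jchain was 2.49 times as high in OVX_E2_P4_PBDE as in OVX_E2_P4 (2.16 to 2.87), where 2.76% of genes were past 2-fold. It was 0.529 times as high in OVX_E2_PBDE as in OVX_E2 (0.441 to 0.635; 2.49% of genes past 2-fold). It was 1.06 times as high in OVX_E2_P4 as in OVX_E2 (0.901 to 1.25; 2.16%) and 1.48 times as high in OVX_E2 as in OVX (1.20 to 1.84; 18.4%). Of these 4, only the first was past 2-fold with 1 UMI added to each sum.

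Fibroblast-like and epithelial-like barcodes held Jchain UMIs in every library. Epithelial-like barcodes are those of basal-like, L-Hor-like, L-Alv-like (alveolar luminal) and mixed luminal clusters, the last with high scores for both luminal types. In OVX, fibroblast-like barcodes stood at 6.55 CPM (5.27 to 8.05) and epithelial-like ones at 5.80 (3.94 to 8.24). In OVX_E2 they stood at 7.97 (5.97 to 10.4) and 9.95 (8.68 to 11.4), and in OVX_E2_P4 at 9.81 (7.39 to 12.8) and 10.3 (9.09 to 11.6). In OVX_E2_P4_PBDE they stood at 23.9 (19.4 to 29.0) and 25.4 (22.9 to 28.1). The ratio of epithelial-like to fibroblast-like was 0.886, 1.25, 1.05 and 1.06 in these 4 libraries, with intervals that hold 1. In OVX_E2_PBDE it was 0.681 (0.512 to 0.909), with 4.32 CPM in epithelial-like and 6.35 in fibroblast-like barcodes.

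Within the epithelium, basal-like, L-Hor-like, L-Alv-like and mixed luminal barcodes of 1 library had overlapping intervals, except that basal-like barcodes of OVX_E2 lay above its L-Hor-like and mixed luminal barcodes. In OVX_E2_P4_PBDE they stood at 26.3, 24.1, 29.9 and 25.3 CPM. Basal-like barcodes stood at 20.0 CPM in OVX_E2 (12.1 to 31.3, 19 UMIs) and at 1.44 in OVX_E2_PBDE (0.174 to 5.19, 2 UMIs). The hematopoietic-like barcodes that were not Jchain-high stood at 5.31 to 30.8 CPM, with OVX_E2_P4_PBDE again highest and with an interval that overlapped those of all other libraries except OVX_E2_PBDE. The endothelial-like barcodes, whose clusters also carried pericyte markers, had 0 UMIs in OVX and in OVX_E2_P4, and 3 to 7 UMIs in the others.

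**Figure D4:**
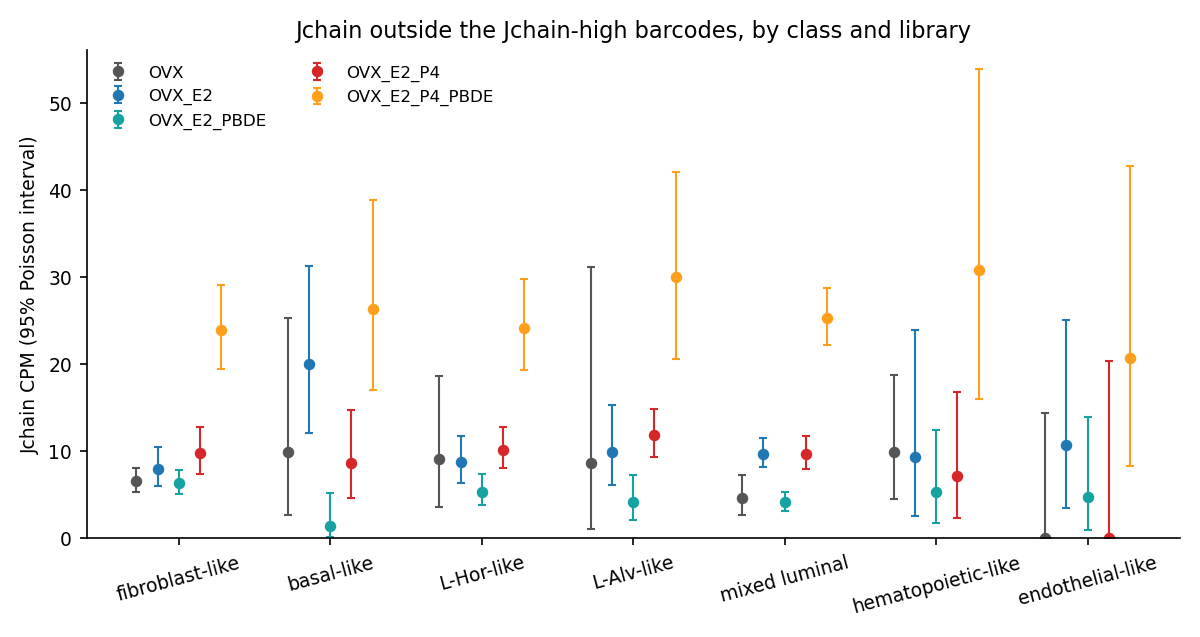
Jchain CPM in barcodes that were not Jchain-high, for 7 classes of cells (x axis) and 5 libraries (colours), with points for sums of UMIs and bars for the exact Poisson 95% intervals. OVX_E2_P4_PBDE has the highest value in each of the 7 classes, at 20.7 to 30.8 CPM, with bars that overlap those of at least 1 other library in basal-like, L-Alv-like, hematopoietic-like and endothelial-like barcodes, and the fibroblast-like barcodes of the other libraries stand at 6.35 to 9.81.

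The share of barcodes with a Jchain UMI was higher in the class with more UMIs per barcode. In OVX_E2 it was 5.34% of fibroblast-like barcodes and 16.5% of epithelial-like barcodes, whose medians were 6640.5 and 13545 UMIs. After each barcode was thinned to 3000 UMIs, the shares were 2.03% (1.23 to 3.15%) and 3.02% (2.12 to 4.15%). In OVX_E2_P4_PBDE they were 10.1% and 23.7% before and 7.17% (5.57 to 9.04%) and 6.69% (5.40 to 8.17%) after thinning. In the other 3 libraries the thinned shares were 1.44% to 3.06%. Hematopoietic-like barcodes that were not Jchain-high had thinned shares of 0% to 8.22%. A share of barcodes with a Jchain UMI at these levels was thus found also in fibroblast-like and epithelial-like barcodes. Whether these cells make the transcript was not tested.

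Over the 5 libraries, Jchain UMIs per 100 fibroblast-like or epithelial-like barcodes were 5.50 in barcodes under 5000 UMIs, 6.61 from 5000 to 10000, 16.1 from 10000 to 20000 and 27.3 above. Per UMI the levels were closer, at 12.9, 9.59, 11.7 and 8.76 CPM. The libraries differ in their share of each depth, and within OVX_E2_P4_PBDE the levels were 22.5, 25.9, 30.6 and 21.8 CPM.

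Mzb1 outside the Jchain-high barcodes stood at 0.508 CPM in OVX_E2 (0.284 to 0.837), 0.691 in OVX, 0.738 in OVX_E2_P4, 0.907 in OVX_E2_PBDE and 1.25 in OVX_E2_P4_PBDE (0.811 to 1.85), with overlapping intervals and 14 to 38 UMIs per library. In OVX_E2_PBDE, 21 of the 38 UMIs lay in the B cell-like barcode described above. Without it, and with the Jchain-high barcodes kept in the UMI total only, the level was 0.406 CPM (0.236 to 0.649), which lies below the interval of OVX_E2_P4_PBDE. In the other libraries no such barcode held more than 3. Per 1000 Jchain UMIs, there were 46.0 Mzb1 UMIs in the Jchain-high barcodes (42.6 to 49.7) and 55.7 in the fibroblast-like and epithelial-like barcodes (43.7 to 70.0), with B cell-like ones left out. The hematopoietic-like barcodes that were not Jchain-high stood apart, with 32 Mzb1 and 35 Jchain UMIs, or 914 per 1000 (548 to 1520). Of the 32 Mzb1 UMIs, 21 lay in the B cell-like barcode of OVX_E2_PBDE.

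By library, the Jchain-high and the fibroblast-like and epithelial-like barcodes had 59.9 and 41.3 Mzb1 per 1000 Jchain UMIs in OVX, and 51.7 and 58.8 in OVX_E2_P4, with overlapping intervals. In OVX_E2 the values were 29.2 (22.9 to 36.7) and 55.1 (30.4 to 92.6), which also overlap. In OVX_E2_PBDE they were 26.5 (21.8 to 31.9) and 78.8 (44.2 to 131), and in OVX_E2_P4_PBDE 87.3 (73.9 to 102) and 47.7 (30.0 to 72.5). These last 2 pairs do not overlap, and they differ in opposite directions. The intervals treat UMIs of the same barcode as independent. In OVX_E2_P4_PBDE, 82 of the 163 Mzb1 UMIs of the Jchain-high barcodes lay in a single barcode, beside 45 of the 1868 Jchain UMIs. The value of these barcodes in that library therefore rests largely on that barcode. Over all Jchain-high barcodes the value of a barcode ranged from 3.93 to 1822 per 1000.

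Other transcripts were also found outside their own cell type, and OVX_E2_P4_PBDE had the highest such level relative to the library. The Jchain level of fibroblast-like and epithelial-like barcodes was 0.211 times that of the library in OVX_E2_P4_PBDE and 0.0471 to 0.0973 times in the others. For Cd74 it was 0.249 times and 0.0809 to 0.117 times. For Lyz2, a macrophage gene, it was 0.243 times and 0.0757 to 0.225 times. For Col1a1 in epithelial-like barcodes it was 0.154 times and 0.0771 to 0.114 times, and for Krt18 in fibroblast-like barcodes 0.124 times and 0.0526 to 0.102 times. The library level in these ratios includes the gene's own cell type, and the CPM did not all rank this way. Col1a1 stood at 73.9 CPM in OVX_E2_P4_PBDE and 139 in OVX, and Cd74 at 74.4 and 75.5. Krt18 stood at 383 CPM in OVX_E2_P4_PBDE and 380 in OVX_E2_P4. Lyz2 was highest in OVX_E2_P4_PBDE, at 30.5 CPM, against 11.4 to 18.6 in the others. The part of free RNA in the Jchain level outside the Jchain-high barcodes was not tested.

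The genes that draw, feed or serve IgA plasma cells differed in the classes that carried them. Pigr, the transporter of dimeric IgA, had 21 to 48 UMIs in the epithelial-like barcodes of a library, or 1.14 to 3.93 CPM, and 0 to 2 in the fibroblast-like barcodes. The epithelial-like level was highest in OVX, at 3.93 CPM (2.43 to 6.01), and lowest in OVX_E2, at 1.14 (0.735 to 1.68), with no overlap. The interval of OVX overlapped that of OVX_E2_P4_PBDE (1.13 to 2.53). In mixed luminal barcodes of OVX, Pigr stood at 4.83 CPM (2.91 to 7.55). In L-Alv-like barcodes it stood at 4.20 CPM in OVX_E2_P4 (2.77 to 6.12) and 2.98 in OVX_E2 (1.09 to 6.48), which overlap. Ccl28, the epithelial chemokine that binds Ccr10, had 0 UMIs in the epithelial-like barcodes of 4 libraries and 1 in OVX_E2. Cxcl12, which holds plasma cells in their niche, stood at 1168 to 1404 CPM in endothelial-like and 222 to 439 in fibroblast-like barcodes. In the basal-like barcodes it stood at 62.1 to 251 CPM, highest in OVX (205 to 305). Il6, a survival factor of plasma cells, stood at 163 to 441 CPM in endothelial-like and 108 to 156 in fibroblast-like barcodes. The adhesion gene Vcam1 stood at 24.6 to 34.9 CPM in fibroblast-like and 1.57 to 3.00 in epithelial-like barcodes. Madcam1, the ligand of the gut-homing integrin, had 0 to 2 UMIs in each of these classes and libraries. Tnfsf13b (BAFF) stood at 10.6 to 18.1 CPM in fibroblast-like barcodes, and Tnfsf13 (APRIL), a ligand of BCMA, at 0.150 to 0.716.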

How the data were processed

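The authors aligned the reads to mm10 and counted UMIs with Cell Ranger 2.0.0, and they deposited raw UMI counts per gene and called barcode, without normalization. Barcodes with under 500 genes, under 1000 UMIs or over 10% mitochondrial UMIs were removed. Clusters were made separately per library in Seurat 5.3.0 (R 4.3.3; log-normalization to 10000, 2000 variable genes without the listed genes, 10 principal components, 20 neighbours, resolution 0.3 for OVX and 0.5 for the others). Clusters were named from marker genes with a score of at least 0.25. No doublets were removed, and a barcode may hold more than 1 cell.

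The members and gene lists were chosen with earlier results of these data known. A plasma cell-like barcode was planned as one with at least 5% of its UMIs from immunoglobulin constant genes. Those genes were not analysed here, so at least 10 Jchain UMIs took the place of that share, a rule set after seeing the data. The named genes were the members, the genes of the lists, the 10 genes with the largest ratio in plasma cell-like barcodes (at least 20 UMIs) and the 10 genes most alike to each member over sums of at least 20000 UMIs. Likeness to Igkc and variable-region genes, also planned, was not computed.

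Levels are CPM of summed UMIs with exact Poisson intervals, and shares have Clopper-Pearson intervals (scipy 1.17.1). With 1 library per group there is no test. Between libraries, genes with at least 50 UMIs over both were counted as past 2-fold with 1 UMI added to each sum. Shares of barcodes with a UMI were also taken after thinning to 3000 UMIs. The ratios and intervals were also run on simulated counts drawn independently. Those counts lack the gathering of Jchain and Mzb1 UMIs in few barcodes, so that run cannot gauge the values of these genes. Positions come from GENCODE M21 and upstream sequence from RefSeq. The reference genome is of another strain than BALB/cj.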

Additional observations from a re-analysis of the deposited data

Results flagged for a closer look

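Jchain was flagged because the comparison with and without PBDE went in opposite directions without and with P4, and this difference was not tested. Outside the Jchain-high barcodes, the log2 ratio was -0.92 for OVX_E2_PBDE to OVX_E2 and 1.32 for OVX_E2_P4_PBDE to OVX_E2_P4. Over all barcodes it was 0.13 and -0.12, so the direction in each pair was the reverse of that outside the Jchain-high barcodes. Each ratio compares 1 library with another, and the level over all barcodes rests on 2 to 5 barcodes per library.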

How the results depend on the processing

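Of 244 values under other settings, 194 lay within the interval of the value reported (for counts of genes, within 1.5 times). Of the 30 library levels only 10 did, all of them those without the quality filter. Of the 20 shares of barcodes with a UMI, 6 did. All 40 numbers of plasma cell-like barcodes did, but their intervals are wide, at 0.619 to 8.76 for the 3 barcodes of OVX_E2_P4_PBDE. A fall from 3 to 1 there lies within it, so the total does not gauge robustness. Jchain without the barcode with the most UMIs stood at 46.5, 45.9, 77.4, 91.7 and 71.0 CPM (in the order OVX, OVX_E2, OVX_E2_PBDE, OVX_E2_P4, OVX_E2_P4_PBDE), and without the plasma cell-like barcodes at 9.92, 9.51, 5.04, 10.1 and 49.4. Mzb1 stood, in the same order, at 4.10, 0.711, 2.79, 4.21 and 5.31 without its highest barcode, and at 1.73, 0.508, 0.907, 0.738 and 1.85 without the plasma cell-like barcodes. The 2 Jchain-high barcodes that were not plasma cell-like stayed in the levels without plasma cell-like barcodes. They held 71 Jchain UMIs in OVX and 484 in OVX_E2_P4_PBDE. Without all Jchain-high barcodes, Jchain stood at 6.42 CPM in OVX and 25.1 in OVX_E2_P4_PBDE. The quality filter changed none of the numbers of plasma cell-like barcodes.

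Plasma cell-like barcodes numbered 1 in OVX_E2_P4_PBDE with at least 5 markers, and 2 there with at least 50 or 100 Jchain UMIs. With Jchain at 5% or more of the UMIs they numbered 2 in OVX, 3 in OVX_E2_P4 and 2 in OVX_E2_P4_PBDE. These Jchain thresholds were chosen after seeing the data.

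Shares of barcodes with a Jchain UMI without thinning were 3.47, 5.34, 4.64, 5.81 and 10.1% of fibroblast-like barcodes and 7.78, 16.5, 7.76, 12.3 and 23.7% of epithelial-like barcodes, in the same order. For Mzb1 in epithelial-like barcodes they were 1.01, 0.846, 0.699 and 1.67% in the last 4 of these libraries. Without the barcode with the most UMIs, Mzb1 in fibroblast-like barcodes of OVX_E2 was 0, since it held 1 UMI.

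With Jchain-high barcodes kept in their class (chosen after seeing the data), Jchain stood at 79.4 CPM in epithelial-like barcodes of OVX_E2, 55.6 in fibroblast-like ones of OVX_E2_P4 and 28.4 in epithelial-like ones of OVX_E2_P4_PBDE, where Mzb1 stood at 6.91.

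Genes past 2-fold numbered 1581 with at least 200 UMIs in OVX_E2 against OVX, 107 in OVX_E2_P4 against OVX_E2, 126 in OVX_E2_PBDE against OVX_E2 and 130 in OVX_E2_P4_PBDE against OVX_E2_P4. With at least 10 UMIs the last 3 were 831, 879 and 991. Past 4-fold, all 4 were 382, 14, 31 and 22. Scaling to total UMIs left median log2 ratios of -0.11 and -0.14 in OVX_E2_P4 and OVX_E2_PBDE against OVX_E2.

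The alternatives that use immunoglobulin genes were not run, because these genes were not analysed here. No paired analysis was possible because each group has 1 library. Depth limits Mzb1 outside the Jchain-high barcodes, with 14 to 38 UMIs per library. The level of OVX_E2_PBDE without 1 barcode was computed after seeing the data.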
